A study of Homo sapiens with 9 samples.

Results

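Both clonal lines that overexpress lamin B1 fused to mCherry, LmnB1_6 and LmnB1_16, were compared with each other for H3K9me3, the trimethyl mark on lysine 9 of histone H3. They carry the same construct and received the same doxycycline dose, so the comparison describes how far clones of 1 construct differed. The members are the 4 H3K9me3 samples of these clones, replicates 1 and 2 of each, out of 8 H3K9me3 samples and 9 samples in all. They were chosen by clone name alone. All were made by Cut&Run, in which a nuclease tethered to an antibody releases the marked DNA for sequencing, from hTERT RPE-1, a telomerase-immortalised cell line derived from human retinal pigment epithelium. Group LmnB1_6 is 1 clone and group LmnB1_16 is 1 clone, each stably overexpressing mCherry-LmnB1 and given doxycycline at 0.05 ug/mL for 24 hours. The 4 samples set beside them come from the clones mCherry_3 and mCherry_4, which overexpress mCherry alone at the same dose and time. The labels call the replicates biological and give no more, so the spread between them may be partly technical. The input sample came from untreated wild-type cells, not from the clones.

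H3K9me3 marks constitutive heterochromatin, where it is bound by HP1 proteins and keeps repeats, gene clusters and genes of other lineages silent. Lamin B1 is a filament protein of the nuclear lamina, the sheet under the inner nuclear membrane to which much of this heterochromatin is tethered in lamina-associated domains. Such domains are long and poor in genes, and which of them touch the lamina differs between cell types.

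Each sample has 1 deposited list of domains enriched over input, and a region is called covered where a listed domain lies over it. Being outside a list does not mean being without reads, because a region may lie just below the authors' enrichment limit. LmnB1_6 replicate 2 was the weakest of the 4 libraries. Its domains held 4467294 reads at a log2 enrichment over input of 0.71 pooled over all domains, against 10144777 reads at 0.93 in LmnB1_6 replicate 1. LmnB1_16 replicate 1 had 10321442 reads at 1.14 and its replicate 2 had 9029907 reads at 0.95. Depth relative to input was 0.944 and 0.902 for the LmnB1_6 replicates and 0.880 and 1.01 for the LmnB1_16 replicates, so the clones overlapped in depth. Weak enrichment can remove a domain from the list of LmnB1_6 replicate 2, but it cannot add one. Sequence covered in both LmnB1_6 libraries and in neither LmnB1_16 library is therefore reported apart from the reverse. The overexpression itself is not checked by these data: no domain lay over LMNB1 in any of the 8 libraries. Of 17 genes of the retinal pigment epithelium, 14 were at 0% in all 4 LmnB1 libraries, and domain coverage does not measure their expression.

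The promoters of 5 genes show both directions at the level of sequence. Each is the 300-base window from 250 bases before to 50 after a transcription start, from RefSeq on GRCh38.p14, with every CG in capitals. KCNJ3, EDNRB and UGT2B15 lay wholly inside domains of both LmnB1_6 libraries and of none of the other 6. SALL3 lay inside domains of both LmnB1_16 libraries only, and MS4A3 inside domains of both LmnB1_16 and all 4 mCherry libraries.
KCNJ3: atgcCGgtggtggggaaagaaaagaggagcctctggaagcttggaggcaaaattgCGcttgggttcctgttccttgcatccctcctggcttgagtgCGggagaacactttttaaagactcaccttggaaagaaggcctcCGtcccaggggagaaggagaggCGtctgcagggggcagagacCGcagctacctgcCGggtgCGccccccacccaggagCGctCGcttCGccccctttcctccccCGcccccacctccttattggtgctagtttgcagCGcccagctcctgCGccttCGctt
EDNRB: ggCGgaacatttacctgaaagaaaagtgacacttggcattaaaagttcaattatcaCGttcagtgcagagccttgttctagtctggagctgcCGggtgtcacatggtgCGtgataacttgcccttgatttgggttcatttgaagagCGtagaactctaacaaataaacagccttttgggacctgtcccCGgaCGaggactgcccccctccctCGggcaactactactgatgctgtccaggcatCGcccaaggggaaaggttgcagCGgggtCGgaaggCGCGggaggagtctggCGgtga
UGT2B15: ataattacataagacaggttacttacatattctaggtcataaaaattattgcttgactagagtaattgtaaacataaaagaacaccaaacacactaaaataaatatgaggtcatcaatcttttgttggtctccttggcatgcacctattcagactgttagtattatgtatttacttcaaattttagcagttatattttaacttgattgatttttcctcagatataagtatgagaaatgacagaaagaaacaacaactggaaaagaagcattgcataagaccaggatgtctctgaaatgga
SALL3: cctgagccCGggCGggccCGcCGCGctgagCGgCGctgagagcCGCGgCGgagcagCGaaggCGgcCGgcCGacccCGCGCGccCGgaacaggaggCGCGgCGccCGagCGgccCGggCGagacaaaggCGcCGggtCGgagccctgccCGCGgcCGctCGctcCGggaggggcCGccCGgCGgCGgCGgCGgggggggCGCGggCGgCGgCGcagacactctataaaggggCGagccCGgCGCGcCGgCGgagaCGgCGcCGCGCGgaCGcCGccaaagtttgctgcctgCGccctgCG
MS4A3: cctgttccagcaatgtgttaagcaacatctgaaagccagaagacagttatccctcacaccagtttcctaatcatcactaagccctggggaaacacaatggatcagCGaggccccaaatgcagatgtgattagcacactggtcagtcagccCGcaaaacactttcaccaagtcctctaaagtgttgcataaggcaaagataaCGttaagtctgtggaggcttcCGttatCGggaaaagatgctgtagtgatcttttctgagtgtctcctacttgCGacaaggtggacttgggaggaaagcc
CG dinucleotides numbered 15 in KCNJ3 and 14 in EDNRB, while UGT2B15 held 0, MS4A3 6 and SALL3 59, so promoters covered in 1 of the 2 LmnB1 clones ranged from none to a dense CG island. The windows were chr2:154698445-154698744 (plus strand), chr13:77919633-77919932 (minus), chr4:68670603-68670902 (minus), chr18:78979568-78979867 (plus) and chr11:60056415-60056714 (plus), in the order printed.

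Of 15842 promoters matched to the gene table, 55 were covered in both LmnB1_6 libraries and in neither LmnB1_16 library (0.347%). The reverse held for 118 (0.745%). The 55 were poor in CG, with a median of 5 per window and quartiles of 2 and 14.5, against a median of 22 over all matched promoters. The 118 had a median of 9, and the 326 promoters covered in all 4 libraries a median of 6. The 14647 promoters covered in none of the 4 libraries had a median of 23. A CG, searched as these letters on 1 strand since it reads the same on the other, occurred in 98.1% of all matched promoters. The clones did differ in what the mCherry lines showed at these promoters. Of the 55, 51 were in no mCherry library, whereas 32 of the 118 were in none and 55 were in both mCherry_3 libraries. Over all 15842 matched promoters, 14870 were in no mCherry library and 623 in both mCherry_3 libraries. The 51 of 55 was therefore near the share of all promoters. Among the 326 covered in all 4 LmnB1 libraries, 4 were in no mCherry library.

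Over the whole genome, covered length did not separate the clones, whereas the position of the domains did in part. Domains covered 646 and 357 Mb in LmnB1_6 and 610 and 534 Mb in LmnB1_16. The LmnB1_6 mean was 501 ± 205 Mb and the LmnB1_16 mean 572 ± 53.8 Mb (SD, n = 2 each), a difference of -70.7 Mb (exact two-sided permutation p = 1, where 2 against 2 allows no p below 0.333). The difference was 74.2 Mb without LmnB1_6 replicate 2, -215.6 Mb without LmnB1_6 replicate 1, -32.6 Mb without LmnB1_16 replicate 1 and -108.7 Mb without LmnB1_16 replicate 2, so its sign rested on the weakest library. The median domain length was higher in LmnB1_6, at 13 and 37 kb against 8 and 11 kb. In this median the clones did not overlap (exact permutation p = 0.333, the smallest possible). It was 17 and 18 kb in mCherry_3 and 32 and 28 kb in mCherry_4. Domains longer than 1 Mb numbered 71 and 3 in LmnB1_6 and 120 and 82 in LmnB1_16.

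LmnB1_6 replicate 2 lay almost wholly inside its partner. Of its covered sequence 97.2% was also covered in LmnB1_6 replicate 1, and 96.5% of LmnB1_16 replicate 2 was covered in LmnB1_16 replicate 1. The Jaccard index, the shared length divided by the length covered in either library, was 0.820 within LmnB1_16 and 0.528 within LmnB1_6. Across clones it was 0.634 and 0.629 for LmnB1_6 replicate 1 and 0.415 and 0.443 for replicate 2. LmnB1_6 replicate 1 thus shared a larger fraction with either LmnB1_16 library than with its own replicate, in an index that falls when lists differ in length.

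The 4 libraries together covered 784 Mb, of which 265.6 Mb (33.9%) lay in all 4. A further 183.9 Mb was missing from LmnB1_6 replicate 2 alone, the pattern that weak enrichment of that library can create. Both LmnB1_6 libraries and neither LmnB1_16 library covered 67.98 Mb, or 19.6% of the 346.7 Mb common to the LmnB1_6 pair. Both LmnB1_16 libraries and neither LmnB1_6 library covered 60.5 Mb, or 11.7% of the 515.4 Mb common to the LmnB1_16 pair. Without LmnB1_6 replicate 2 these lengths were 152.7 and 65.9 Mb, and without LmnB1_6 replicate 1 they were 70.6 and 244.4 Mb. Without LmnB1_16 replicate 2 they were 69.9 and 116.0 Mb.

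The mCherry clones separated both kinds of sequence. Sequence found only in LmnB1_6 was nearly bare in the mCherry lines: 4.33% and 3.81% of it was covered in mCherry_3 replicates 1 and 2, and 3.39% and 1.90% in mCherry_4. Sequence found only in LmnB1_16 was covered to 61.7% in both mCherry_3 libraries and to 39.1% and 22.2% in mCherry_4. Of the LmnB1_6 kind 92.4% lay in no mCherry library, and of the LmnB1_16 kind 25.9%. Most of what LmnB1_6 alone carried was therefore absent from all other lists, while most of what LmnB1_16 alone carried recurred in a line without the lamin construct.

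**Figure D1:**
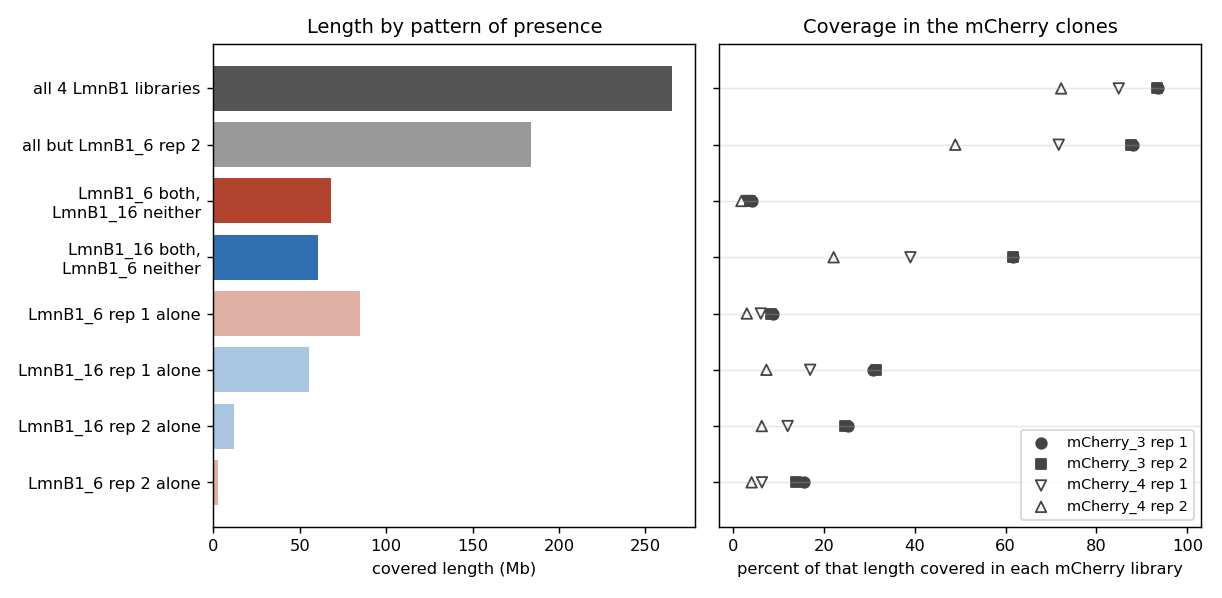
Covered length in Mb for 8 patterns of presence among the 4 LmnB1 libraries (left, bars) and the percent of that length covered in each mCherry library (right, 1 symbol per library). The length found in both LmnB1_6 libraries and in neither LmnB1_16 library, 67.98 Mb, sits below 5% in all 4 mCherry libraries, while the reverse pattern, 60.5 Mb, reaches 61.7%.

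The same count can be made for each of the 4 clones against the 6 libraries of the others. Sequence in both libraries of a clone and in no other library came to 62.8 Mb for LmnB1_6, which was 18.1% of what its pair shared. For LmnB1_16 it was 15.7 Mb (3.04%), for mCherry_3 8.13 Mb (1.68%) and for mCherry_4 0.495 Mb (0.180%). LmnB1_6 had the most private sequence of these 4 clones although its second library had fewer domain reads than 5 of the other 7 libraries. Counting presence in both libraries of 1 clone and absence in both of another, LmnB1_6 differed from mCherry_3 by 83.3 Mb and from mCherry_4 by 95.1 Mb, while LmnB1_16 differed from them by 46.0 and 95.3 Mb.

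Sequence found only in LmnB1_6 came in long stretches. It formed 1533 segments with a median of 23 kb, and 163 segments of at least 100 kb made up 29.9 Mb. Sequence found only in LmnB1_16 formed 5586 segments with a median of 4 kb, and 81 of at least 100 kb made up 15.05 Mb. Of the long segments, 135 of 163 were at 0% in all 4 mCherry libraries in the LmnB1_6 set, and 2 of 81 in the LmnB1_16 set. A segment counted as bordering a domain of the other clone where the next 1 kb window was covered in either of that clone's libraries. A short domain was enough, and short LmnB1_16 replicate 1 domains bordered the longest LmnB1_6 segment on both sides. Bordering segments are thus not all extensions of shared domains. By length, 53.2% of the LmnB1_6 set and 38.1% of the LmnB1_16 set did not border one.

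The sequence found only in LmnB1_6 touched 217 protein-coding genes, or 3.19 per Mb, against 3.85 per Mb for the sequence shared by all 4 libraries. The LmnB1_16 sequence touched 1261 genes, or 20.8 per Mb, and its more numerous and shorter segments raise the chance of touching a gene. Gene bodies made up 29.4% of the LmnB1_6 length, 32.4% of the LmnB1_16 length and 28.0% of the shared length. No protein-coding gene lay in 91 of the 163 long LmnB1_6 segments and in 37 of the 81 long LmnB1_16 segments.

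The domains found in 1 clone were not the strongest of their lists. These were taken as domains that no domain of the other clone overlapped and that the clone's other library covered by at least 50%. LmnB1_6 replicate 1 had 139 of them. Their median log2 enrichment was 0.88, at a median percentile of 48.9 of that list. In LmnB1_6 replicate 2 there were 650 such domains with a median log2 of 0.68, and 61.5% of them lay below 0.7, as did 49.2% of that whole list. Every listed domain exceeded 0.6. In LmnB1_16 the median log2 was 1.22 over 1573 domains of replicate 1 and 0.93 over 1587 of replicate 2. The whole lists had medians of 1.15 and 0.96, and the median percentiles were 55.8 and 46.7. Domains that the other clone overlapped, taken with the same 50% limit, had median percentiles of 65.1 and 52.6 in the LmnB1_6 replicates. In the LmnB1_16 replicates these were 62.7 and 54.0. Across all 4 lists 10 domains had identical coordinates, too few for a count model over common regions. The longest, chr10:105383001-105776000, held 9292 and 7057 reads in LmnB1_6 and 11130 and 10698 in LmnB1_16.

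Bins of 100 kb placed these differences along the genome. Of 10609 bins with a mean coverage of at least 5% over the 4 LmnB1 libraries, 743 had higher coverage in LmnB1_6 (7.0%) and 637 in LmnB1_16 (6.0%) by limma with Benjamini-Hochberg adjusted p below 0.05. Both LmnB1_6 libraries lay above both LmnB1_16 libraries in 1264 bins (11.9%), and the reverse held in 3325 (31.3%). The bins that were apart in favour of LmnB1_16 were mostly small differences: the gap between clones was at most 10 percentage points in 2010 of them, against 182 of the bins in favour of LmnB1_6. Gaps above 90 points numbered 276 in favour of LmnB1_6 and 117 in favour of LmnB1_16. The median difference over all tested bins was -6.5 points. With each library's mean subtracted, limma called 1016 and 481 bins, and 1919 and 3065 were apart. At equal covered length 1181 and 1973 were apart, and with the highest-scoring 50% of each list limma called 374 and 189 bins and 969 and 1164 were apart. Without LmnB1_6 replicate 2 the called bins were 1705 and 674 and the bins apart 2617 and 3485. Without LmnB1_6 replicate 1 the called bins were 1007 and 2939 and the bins apart 1336 and 7028, and without LmnB1_16 replicate 1 the called bins were 632 and 402.

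**Figure D2:**
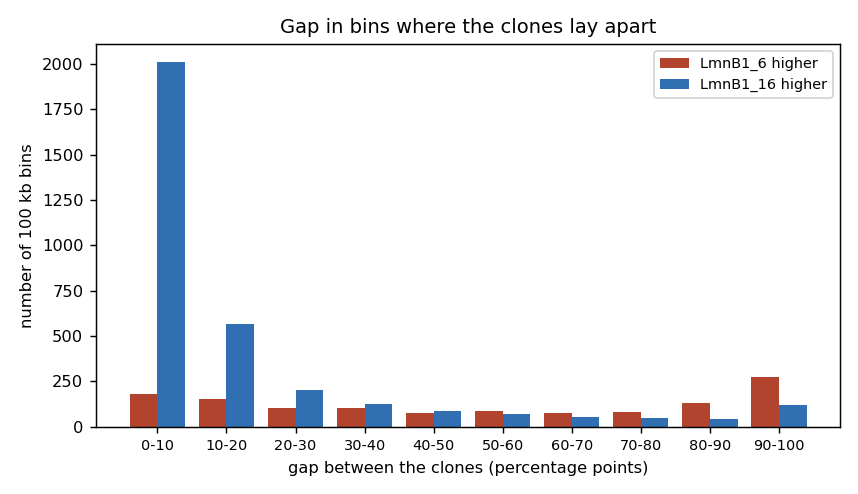
Number of 100 kb bins (vertical axis) by the gap between clones in percentage points (horizontal axis), the lower value of the higher clone minus the higher value of the lower clone, for bins where the clones did not overlap. Bins in favour of LmnB1_16 peak at gaps up to 10 points with 2010 bins, and bins in favour of LmnB1_6 are most numerous above 90 points with 276.

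Bins at least 50% covered in both libraries of 1 clone and at most 10% in both of the other numbered 547 for LmnB1_6 (5.16%) and 219 for LmnB1_16 (2.06%). Of the 547, 496 were at most 10% covered in all 4 mCherry libraries and 9 were at least 50% covered in both mCherry_3 libraries. Of the 219, these counts were 26 and 132. No share over all tested bins was set beside these counts, so an excess over that share was not tested. Without LmnB1_6 replicate 2 the bins numbered 1166 and 235, without LmnB1_6 replicate 1 they numbered 550 and 1279, and without LmnB1_16 replicate 2 they numbered 565 and 358. The LmnB1_6 bins ran together into 230 blocks, 124 of them of 2 bins or more, and the LmnB1_16 bins into 127 blocks, 39 of them of 2 or more. Blocks without a protein-coding gene numbered 118 and 62.

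The longest LmnB1_6 block had 15 bins, at chr10:108100001-109600000, and held no protein-coding gene. Mean coverage of its bins was 99.5% and 98.1% in LmnB1_6, 0.40% and 0% in LmnB1_16, 0% in both mCherry_3 libraries, and 0% and 0.33% in mCherry_4. It held most of the longest uninterrupted LmnB1_6 segment, 841 kb at chr10:108788001-109629000, whose end ran past the block. The next block, chr11:23900001-25100000, held LUZP2, a leucine zipper gene of the nervous system, with 95.3% and 89.9% in LmnB1_6, 1.08% and 1.00% in LmnB1_16 and 0% in all mCherry libraries. Blocks on chromosome 7 from 125000001 to 126100000 and from 118400001 to 119300000 held no gene. Others held NKAIN2, whose product interacts with the sodium pump, and ERBB4, a receptor tyrosine kinase for neuregulins. These blocks were nearly full in 1 clone and nearly empty in the other 3.

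The longest LmnB1_16 block had 11 bins, at chr18:75600001-76700000, over LOC105372204 and the zinc finger gene ZNF516. Coverage was 95.5% and 95.3% in the LmnB1_16 replicates against 0.73% and 0% in those of LmnB1_6. The mCherry_3 replicates had 70.8% and 67.8%, the mCherry_4 replicates 76.8% and 45.5%. LmnB1_6 was the exception here, since both mCherry clones carried the domain. The same held for a block without gene at chr12:97400001-98200000, with mCherry values from 82.1% to 97.4%, and for one at chr3:54000001-54800000 over CACNA2D3, a calcium channel subunit, with values from 45.5% to 95.5%. A block over PTPRG, a receptor tyrosine phosphatase, split the mCherry clones: it was at 100% in LmnB1_16 and mCherry_3 and at 0% in LmnB1_6 and mCherry_4.

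**Figure D3:**
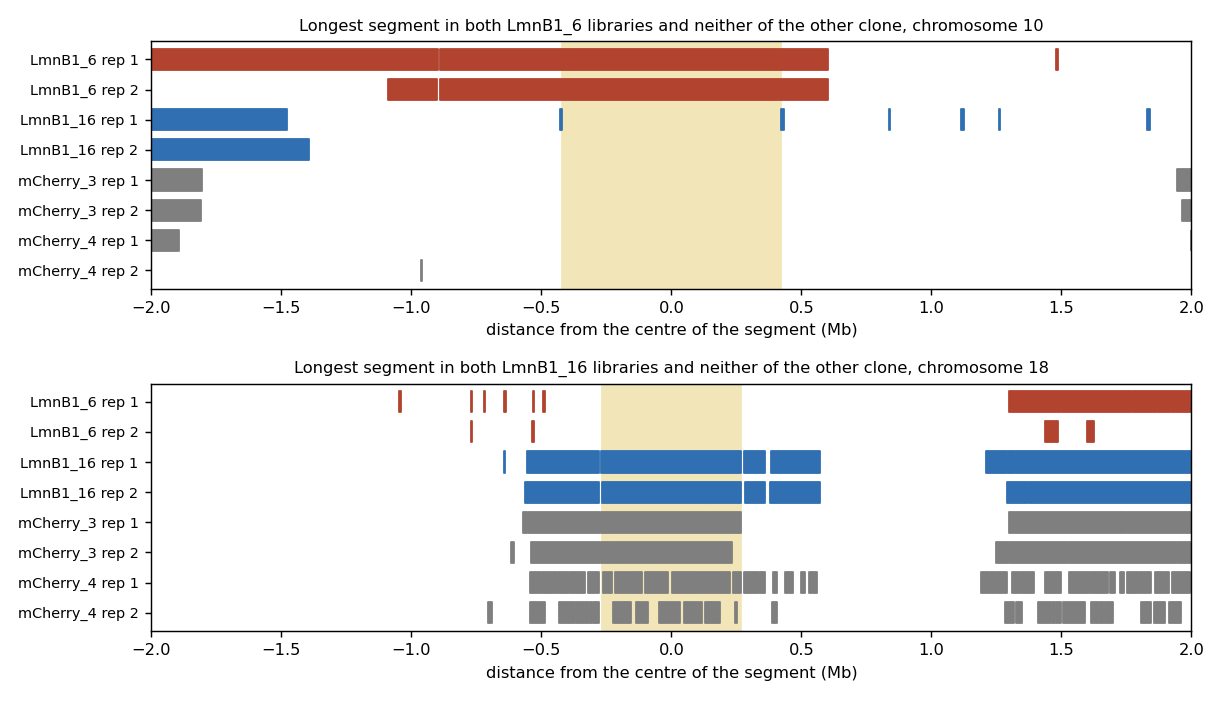
Domains (bars) of the 8 libraries within 2 Mb of the centre of the longest segment found in both LmnB1_6 libraries alone among the LmnB1 lists (top, chromosome 10) and of the longest found in both LmnB1_16 libraries (bottom, chromosome 18); the horizontal axis is distance from the segment's centre in Mb and shading marks the segment. The 841 kb segment is empty in all mCherry libraries, while the 534 kb segment is 56.2% to 99.1% covered in them.

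By chromosome, the share of sequence found only in 1 clone was uneven. Sequence found only in LmnB1_6 made up 19.8% of the length covered in any LmnB1 library on chromosome 13 (5.39 Mb), 13.7% on chromosome 3 and 13.4% on chromosome 2, where it reached 8.30 Mb. It made up 0.64% on chromosome 15, 0.42% on chromosome 17 and 0.017% on chromosome 19. It was also 1.57% on chromosome 18 and 1.88% on X, against 7.98% on chromosome 21. Sequence found only in LmnB1_16 was highest on chromosomes 18 (13.9%, 4.03 Mb), 20 (13.8%, 2.45 Mb) and 3 (11.5%, 5.91 Mb). LmnB1_6 was ahead on 13 chromosomes and LmnB1_16 on 11, among them Y with 0.002 Mb against 0.

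**Figure D4:**
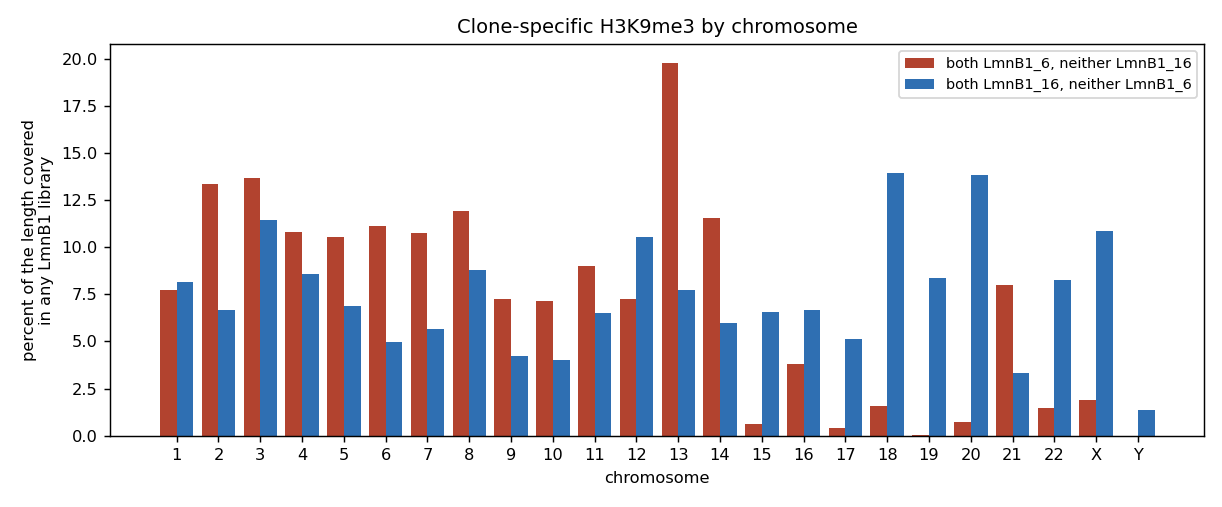
For each chromosome (horizontal axis), the sequence found in both libraries of 1 clone and in neither of the other, as a percent of the length covered in any LmnB1 library (vertical axis, bars from 0). Chromosome 13 has the tallest LmnB1_6 bar at 19.8%, and chromosomes 18 and 20 have the tallest LmnB1_16 bars at 13.9% and 13.8%.

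Total coverage of a chromosome separated the clones less. In Mb, LmnB1_16 was above LmnB1_6 in both libraries on chromosomes 19, 20 and Y, and the reverse held on 0 chromosomes. Chromosome 19 had 14.8 and 10.1 Mb in LmnB1_6 and 17.0 and 16.4 Mb in LmnB1_16, and chromosome 20 had 13.1 and 9.28 Mb and 16.7 and 15.2 Mb. Y was nearly bare in all 4 libraries, with 0.135 and 0.075 Mb in LmnB1_6 and 0.138 and 0.137 Mb in LmnB1_16. As a percent of each library's covered length, which removes the difference in total, LmnB1_6 was higher on 8 chromosomes and LmnB1_16 on 5, Y among them. Chromosome 13 took 3.52% and 4.92% of the LmnB1_6 lists and 3.12% and 3.23% of the LmnB1_16 lists. No test of a chromosome could reach an exact permutation p below 0.333. In Mb, the chromosomes with LmnB1_16 higher numbered 23 without LmnB1_6 replicate 1 and 9 without LmnB1_16 replicate 2. Those with LmnB1_6 higher numbered 15 without LmnB1_6 replicate 2 and 1 without LmnB1_16 replicate 1. At equal covered length the counts were 8 for LmnB1_6 and 6 for LmnB1_16, and with the highest-scoring 50% of each list 4 and 0.

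The replicates of LmnB1_6 were least alike on chromosomes 18 and X. Chromosome 18 had 23.4 Mb in replicate 1 and 3.19 Mb in replicate 2, against 24.8 and 23.1 Mb in LmnB1_16. Chromosome X had 29.8 and 6.80 Mb, against 41.3 and 21.7 Mb. The loss in replicate 2 was larger there than over the whole list, where it covered 357 against 646 Mb, and its part in the LmnB1_16 share of chromosome 18 was not tested.

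Over gene bodies the balance of calls differed from that over bins, with more genes called for LmnB1_16. Of 2373 protein-coding genes with a mean coverage of at least 5%, limma called 90 higher in LmnB1_6 (3.79%) and 139 higher in LmnB1_16 (5.86%). The clones were apart in favour of LmnB1_6 at 172 genes (7.25%) and in favour of LmnB1_16 at 762 (32.1%), and the median difference was -9.60 points. With the library mean subtracted these counts turned to 119 and 61 called and 451 and 362 apart. At equal covered length 168 and 503 genes were apart, and with the highest-scoring 50% of each list 142 and 338 were apart and 51 and 57 called. Without LmnB1_6 replicate 2 limma called 256 and 147 genes, without LmnB1_6 replicate 1 it called 137 and 501, and without LmnB1_16 replicate 2 it called 81 and 261. Which clone had more genes apart thus depended on the scaling, and the genes below were ranked by the gap between clones.

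Present in both LmnB1_6 libraries (at least 50%) and absent in both LmnB1_16 libraries (at most 10%) were 66 genes (2.78%), and the reverse held for 87 (3.67%). Of the 66, 62 were at most 10% covered in all 4 mCherry libraries. Of the 87, 18 were, and 38 were at least 50% covered in both mCherry_3 libraries. Here, too, no share over all tested genes was set beside the counts. The counts were 179 and 97 without LmnB1_6 replicate 2, 69 and 378 without LmnB1_6 replicate 1, and 68 and 190 without LmnB1_16 replicate 2. Of the 66 genes, 13 lay on chromosome 4 and 8 each on chromosomes 3 and 7. Of the 87, 12 lay on chromosome 19, which had 0 of the 66.

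The 15 genes with the widest gap in favour of LmnB1_6 were each covered over 100% of their length in both LmnB1_6 libraries and 0% in the other 6. They were KLHL1, KCNJ3, SLC13A1, EDNRB, SERPINI2, UGT2B11, UGT2B15, C3orf85, UGT2B28, MUC15, CSN3, PRR27, LOC124909461, ODAM and HTN1. KLHL1, a neuronal kelch-like protein, is the longest, at chr13:69700597-70108452. KCNJ3, at chr2:154698695-154858354, encodes a G protein-gated potassium channel and lay in a 659 kb segment. SLC13A1, at chr7:123113531-123199971, encodes a sodium-sulfate cotransporter. EDNRB, at chr13:77895487-77975527, encodes the endothelin B receptor. For each the difference was 100 points with a standard error of 0.97 and a limma adjusted p of 3.8e-07, the same in all because the replicates did not differ and the error is the one limma borrows from all genes. With the highest-scoring 50% of each list 6 of the 15 lost the call (SLC13A1, UGT2B11, UGT2B15, C3orf85, CSN3 and LOC124909461, each with adjusted p = 0.45), and at equal covered length MUC15 lost it (adjusted p = 0.43).

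The 15 genes with the widest gap in favour of LmnB1_16 were each at 100% in both LmnB1_16 libraries and 0% in both LmnB1_6 libraries. They were LOC124903162, TDRD15, SALL3, MS4A3, NOBOX, ZIM3, ZNF417, OR11G2, OR1M1, TAC1, GOLGA6L2, OR7G2, OR10G4, PENK and LOC124904607. Only SALL3, NOBOX, ZNF417 and PENK among them were at 0% in all 4 mCherry libraries. SALL3 (chr18:78979818-78998969) encodes a developmental zinc finger factor, NOBOX (chr7:144396894-144410227) an oocyte homeobox factor, ZNF417 (chr19:57905774-57916592) a C2H2 zinc finger protein and PENK (chr8:56440957-56446641) the enkephalin precursor. MS4A3, a membrane protein of blood cells, was at 99.2% and 100% in mCherry_3 and 100% in both mCherry_4 libraries, so LmnB1_6 was the only clone without it. TAC1, the precursor of substance P, was at 94.4% and 100% in mCherry_3 and at 100% and 0% in mCherry_4. Its difference of -100 points did not pass limma (adjusted p = 0.19), where the mCherry_4 replicates, which lay 100 points apart, enter the spread. The same difference did not pass at LOC124903162, TDRD15, ZIM3, OR1M1, OR7G2, OR10G4 and LOC124904607 either, so limma called 7 of these 15 genes (adjusted p of the other 8 from 0.058 to 0.20). OR11G2 lost its call at equal covered length (limma adjusted p = 0.55).

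**Figure D5:**
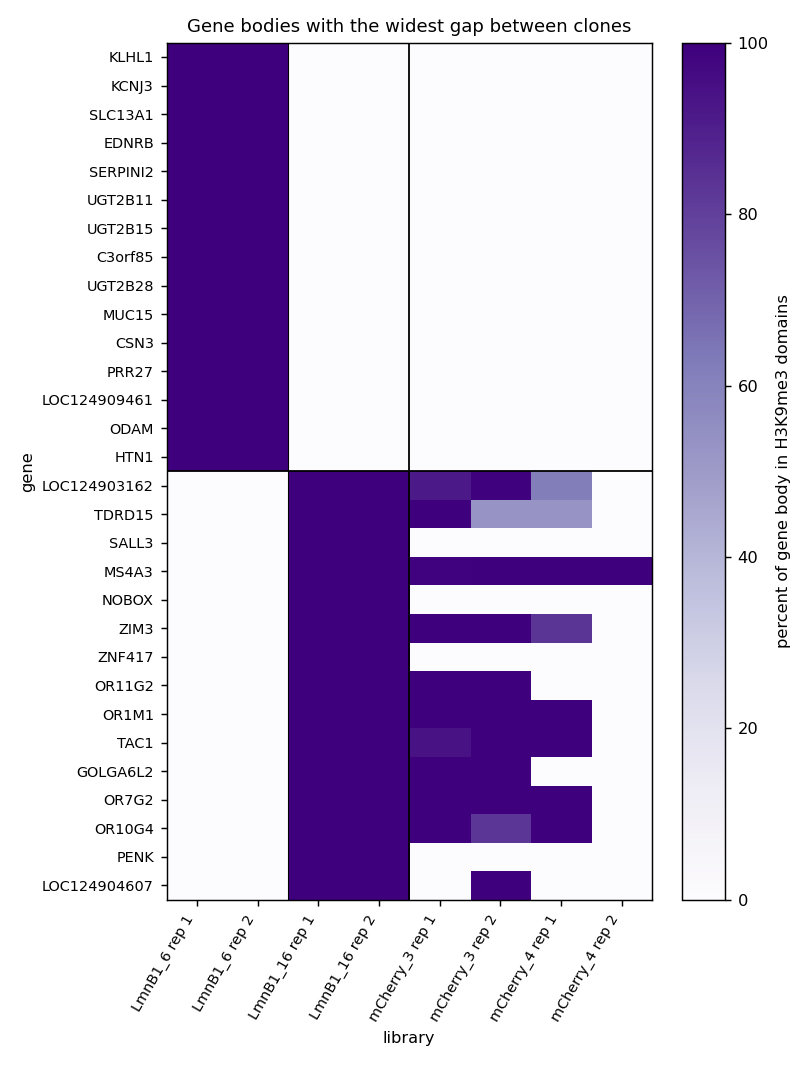
Percent of each gene body inside H3K9me3 domains (colour, 0 to 100%) in the 8 libraries (columns) for the 15 genes with the widest gap in favour of LmnB1_6 (above the line) and the 15 in favour of LmnB1_16 (below). The upper genes are at 0% in all mCherry libraries, and 11 of the lower 15 have coverage in at least 1 mCherry library.

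A run of genes on chromosome 4 carried the mark in LmnB1_6 alone. The UGT2 genes, which encode enzymes that attach glucuronic acid to steroids and drugs, span chr4:68537173-69653247. All 9 tested were at 0% in LmnB1_16 and in the mCherry libraries and at 89.8% to 100% in LmnB1_6 replicate 1. In LmnB1_6 replicate 2 they ran from 0% at UGT2B10 to 100%, with a median of 91.3%. UGT2B4 had 100% and 91.3%, UGT2B17 had 89.8% and 100%, and limma called 5 of the 9. Farther along, at chr4:69995966-70251432, lie genes of saliva, milk and enamel: STATH, HTN3, HTN1, PRR27, ODAM, FDCSP and CSN3, the last encoding kappa-casein. The 7 were at 100% in LmnB1_6 replicate 1, at 79.4% to 100% in replicate 2 and at 0% in the other 6 libraries, and limma called all 7. STATH, HTN3 and FDCSP were picked after their values were seen. The UGT2B genes are close copies of each other, and the sources used here do not say how the authors placed reads that match several copies.

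Over the 30 tested genes of the wider UGT, CYP and SLCO list, 10 were apart in favour of LmnB1_6 (33.3%, against 7.25% of all genes). In favour of LmnB1_16, 6 were (20% against 32.1%), and limma called 5 and 2. The UGT2 genes of the run above made up 8 of the 10 and all 5 that limma called for LmnB1_6. The list's median difference was -7.40 points, against -9.60 over all genes, and became 23.2 at equal covered length and 5.60 with the library mean subtracted. SLCO1B3, a liver transporter of organic anions, went the other way from the UGT2 genes. It was at 96.2% and 84.0% in LmnB1_16 and at 0% in LmnB1_6 and all mCherry libraries, a difference of -90.1 ± 4.16 points (SE, limma adjusted p = 0.00028).

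Cadherins, the calcium-dependent adhesion proteins, differed in both directions, with CDH4 the only wide gap in favour of LmnB1_16. Of 9 tested, 5 were apart in favour of LmnB1_6 (55.6%, against 7.25% of all genes) and 4 in favour of LmnB1_16 (44.4% against 32.1%). The median difference was 35.3 points against -9.60 over all genes. Of those 4, CDH19, CDH7 and CDH11 had gaps of 9.71, 6.42 and 2.08 points. They were at 90.0% to 97.9% in LmnB1_6 replicate 1 and at 0% to 19.4% in the weak replicate 2. At equal covered length 7 were tested, with 3 and 1 apart. CDH10 (chr5:24487100-24644978) was at 100% and 76.0% in LmnB1_6 and at 0% in the other 6 libraries, a difference of 88.0 ± 7.99 points (SE, limma adjusted p = 0.0035). Its neighbours CDH9, at 100% and 43.7%, and CDH12, at 96.5% and 46.8%, were at most 2.27% in LmnB1_16, but limma did not call them (adjusted p = 0.11 and 0.086). CDH4 (chr20:61252261-61940617) was at 61.5% and 57.2% in LmnB1_16, at 2.03% and 0% in LmnB1_6 and at 1.89% to 5.52% in the mCherry libraries (limma adjusted p = 0.00013). CDH10 lost its call at equal covered length (limma adjusted p = 0.43), with the highest-scoring 50% of each list (0.45) and in a fit of the LmnB1 libraries alone (0.082). CDH10 and CDH4 were thus each covered to any large extent in 1 of the 4 clones.

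Clustered protocadherins, adhesion proteins chosen neuron by neuron from a tandem array on chromosome 5, had more coverage in LmnB1_16 where the clones were apart. Of 49 tested, 25 were apart in favour of LmnB1_16 (51.0%, against 32.1% of all genes) and 0 in favour of LmnB1_6, and limma called 7. The median difference was -50 points, against -9.60 over all genes. At equal covered length 29 members were tested, of which 4 were apart in favour of LmnB1_16 and 0 in favour of LmnB1_6, with a median of -29.2. With the library mean subtracted 24 and 5 were apart, with a median of -37.0. The 3 subclusters differed. Of 16 PCDHB genes, 6 were present in LmnB1_16 and absent in LmnB1_6, among them PCDHB5 and PCDHB7 at 100% and 100% against 0% and 0%. All 15 PCDHA genes were apart but only partly so, with medians of 70.6% and 11.2% in LmnB1_6 and 100% and 96.2% in LmnB1_16. None of 18 PCDHG genes was apart. PCDHA and PCDHG genes overlap one another, so they share bases and are not separate counts, and PCDHB genes are close copies. PCDHB7 was at 100% in both mCherry_3 libraries and 0% in both mCherry_4 libraries, and the medians over the PCDHB genes were the same. The PCDHA medians were 10.2% and 0% in mCherry_3 replicates 1 and 2 and 0% in both mCherry_4 libraries.

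C2H2 zinc finger genes, the largest family of human transcription factors and a known carrier of H3K9me3 over their clusters on chromosome 19, seldom passed the test. Limma called 0 of 351 tested higher in LmnB1_6 and 13 higher in LmnB1_16 (3.70%, against 5.86% of all genes). Of the 556 in the list 188 were at 0% in all 4 libraries. The clones were apart at 4 in favour of LmnB1_6 and at 137 in favour of LmnB1_16 (39.0%, against 32.1% of all genes), with a median difference of -12.6 points. That median was 0.37 with the library mean subtracted, where 19 and 83 were apart. ZNF211 was at 100% and 83.1% in LmnB1_16 and at 0% in LmnB1_6. Its mCherry values were 73.9% and 0% in mCherry_3 and 0% in mCherry_4, and limma did not call it (adjusted p = 0.12). ZNF385D was at 83.4% and 21.7% in LmnB1_6 and at 0.52% and 0% in LmnB1_16.

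Receptor genes for smell and taste, silent outside sensory tissue, split by locus. Of 192 olfactory receptor genes tested, 2 were apart in favour of LmnB1_6 (1.04%) and 26 in favour of LmnB1_16 (13.5%), both shares below the 7.25% and 32.1% of all genes. The median of -30.4 points became 0 at equal covered length. OR9A4 had 100% and 85.2% in LmnB1_6 and 0% in the other 6 libraries. Near it on chromosome 7 the bitter taste receptor TAS2R38 had 100% and 100% against 0% and 0%, as did TAS2R16. The OR7 genes at chr19:9100407-9252625 went the other way. Of 6 tested, 5 were at 0% in both LmnB1_6 libraries and 4 met the presence and absence limits in favour of LmnB1_16, and limma called 2. In mCherry_3 all 6 were at 100% in replicate 1 and from 0% to 100% in replicate 2, and in mCherry_4 they had a median of 0% in replicate 1 and were all at 0% in replicate 2.

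Of 79 genes of the X chromosome that are normally active in testis and can be active in cancer, 72 were at 0% in all 4 LmnB1 libraries. Of 7 tested, 4 were apart in favour of LmnB1_6 (57.1%, against 7.25% of all genes) and 1 in favour of LmnB1_16 (14.3% against 32.1%). The 4 are neighbouring MAGEB genes at chrX:26138343-26218270 and are not separate loci. MAGEB18 and MAGEB5, members of a melanoma antigen cluster, were at 100% and 100% in LmnB1_6 and at 0% in the other 6 libraries (limma adjusted p = 3.8e-07). MAGEB6B had 100% and 77.9%, and MAGEB6 had 17.5% and 100%. Their neighbours in the family did not all behave so: MAGEB16 was at 100% in both libraries of both clones. At equal covered length 0 of the 5 list members then tested were apart.

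Genes of the cornified envelope, structural proteins of the outer skin, were apart in favour of LmnB1_16 at 6 of 22 tested (27.3%, below the 32.1% of all genes) and in favour of LmnB1_6 at 0. LCE2C, LCE2D, LCE3D and LCE3E were at 100% and 100% in LmnB1_16 and at 0% in LmnB1_6, while LCE2B was at 100% in all 4. These genes, too, are close copies. Their mCherry values were mixed: LCE2D had 100% in both mCherry_3 and 0% in both mCherry_4 libraries. Limma called 2 members. With the library mean subtracted, 3 members were apart in favour of LmnB1_6 and 5 in favour of LmnB1_16.

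Potassium channels and collagens had single members with wide gaps. Of 22 potassium channel genes, 3 were apart in favour of LmnB1_6 (13.6%, against 7.25% of all genes) and 6 in favour of LmnB1_16 (27.3% against 32.1%). With the library mean subtracted the counts were 6 and 4. KCNMB2, a subunit of calcium-activated channels, had 100% and 72.7% in LmnB1_6 and 3.25% and 2.92% in LmnB1_16. KCNA4, a voltage-gated channel, had 3.71% and 0% against 100% and 100%. Of 13 collagens, 1 was apart in favour of LmnB1_6 (7.69%) and 8 in favour of LmnB1_16 (61.5%), and 1 and 4 with the library mean subtracted. COL11A1, a fibrillar collagen of cartilage, had 69.6% and 50.2% in LmnB1_6, 6.03% and 0% in LmnB1_16 and 0% in the mCherry libraries (limma adjusted p = 0.0090, 0.13 in a fit of the LmnB1 libraries alone and 0.45 with the highest-scoring 50% of each list). COL6A1, a microfibrillar collagen, had 0% against 64.6% and 68.9% and was at 43.2% and 51.8% in mCherry_3 (limma adjusted p = 0.00039).

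Among transcription factors of the retinal pigment epithelium, MITF and OTX2 had their higher values in different clones. MITF (chr3:69739464-69968332), which drives pigment cell genes, was at 100% and 64.4% in LmnB1_6 and at 0% in the other 6 libraries, a difference of 82.2 ± 11.8 points (SE, limma adjusted p = 0.017). That call was lost without LmnB1_16 replicate 1 (adjusted p = 0.10) or replicate 2 (0.071), without mCherry_3 replicate 1 or 2 (0.056 each), at equal covered length (0.43) and in a fit of the LmnB1 libraries alone (0.18). OTX2 (chr14:56799905-56810479), a homeobox factor of eye and brain, was at 100% and 29.3% in LmnB1_16 and at 0% in the other 6 (limma adjusted p = 0.22). The OTX2 difference was -29.3 points without LmnB1_16 replicate 1 and -100 points without LmnB1_16 replicate 2. Leaving out either removes the only spread at this gene, so those fits cannot show whether its coverage was reproduced. Each was thus covered in 1 LmnB1 clone and in no mCherry library.

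Of 18 genes of the nuclear lamina and envelope, 14 were at 0% in all 4 LmnB1 libraries and 2 were tested. NUP210, a nuclear pore membrane protein, was at 87.5% and 44.2% in LmnB1_16 against 2.88% and 0% in LmnB1_6 (limma adjusted p = 0.073), with 14.4% and 11.5% for the mCherry_3 replicates and 0% for mCherry_4. LEMD3, an inner nuclear membrane protein, was at 7.62% and 15.2% in LmnB1_16 and 0% elsewhere (limma adjusted p = 0.085). None of 20 genes of the H3K9 methylation machinery and none of 15 housekeeping genes reached the 5% mean.

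In 3 lists the clones were not apart at any tested gene. Of 43 keratin-associated protein genes, 7 keratins and 6 beta-defensins tested, 0 were apart in either direction. With the library mean subtracted 4 keratin-associated protein genes and 2 keratins were apart in favour of LmnB1_6. That subtraction moves all genes of a library alike, so equal coverage can count as apart. It moved the median difference of the keratin-associated protein genes from 0 to 13.0 points. At equal covered length 1 keratin was apart in favour of LmnB1_6, with 3 beta-defensins in favour of LmnB1_16. With the highest-scoring 50% of each list 1 keratin was apart in favour of LmnB1_6 and 1 keratin-associated protein gene in favour of LmnB1_16. Of 23 glutamate, GABA and glycine receptor genes, 2 were apart in favour of LmnB1_6 (8.70%, against 7.25% of all genes) and 4 in favour of LmnB1_16 (17.4% against 32.1%). These counts turned to 6 and 1 with the library mean subtracted and to 4 and 0 with the highest-scoring 50% of each list. Of 10 synaptic leucine-rich repeat genes, 3 were apart in favour of LmnB1_16 (30%, against 32.1% of all genes). In favour of LmnB1_6, 2 were (20% against 7.25%). LRFN5 among them had 97.3% and 35.3% in LmnB1_6 against 5.04% and 0%. Of 29 solute carriers 2 (6.90%) and 11 (37.9%) were apart, near the shares of all genes, against 5 and 3 with the library mean subtracted.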

How the data were processed

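Per the labels, H3K9me3 was profiled by Cut&Run in 8 libraries, 2 per clone. For each library the authors deposited a list of enriched domains, called without pooling. Each domain carries the authors' count of H3K9me3 reads and of input reads, a p-value and one adjusted for false discovery, a log2 enrichment over input, and a score, which the deposited values show to be 100 times that log2 value. Per the submitters' processing notes, the tools were deepTools, DESeq2, DiffBind 3.0.15 and SICER and the builds hg38 and GRCh38, with no step given for any of them. No source used here names the aligner. Every listed log2 value lay above 0.6, and starts fell on steps of 1 kb.

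Coverage was computed in windows of 1 kb and summed over 100 kb bins, the bodies of 20033 protein-coding genes (RefSeq, GRCh38.p14) and chromosomes. Features with a mean of at least 5% over the 4 LmnB1 libraries were tested with limma 3.58.1 (R 4.3.3), 1 mean per clone over all 8 libraries, Benjamini-Hochberg adjustment at 0.05. Clones were apart where both libraries of one lay above both of the other. Present means at least 50% in both libraries and absent at most 10%. Single values had an exact permutation test over 6 assignments. Named genes are, per direction, the 15 widest gaps (ties by length), the 8 longest blocks, the 10 longest segments and up to 4 members per list among those apart. A few items that this rule names are not reported here. Members and lists were chosen with earlier results of these data known. On simulated data with planted shifts, limma recovered 34% of bins and 48% of genes at 80 points, and 8% and 22% at 40 points. Uncalled features are thus not shown to be alike. The 0 false calls there were fixed in advance, because the simulated noise left the clone means of unplanted features equal. They do not measure how often limma calls wrongly. Other computing used scipy 1.17.1, pandas 2.3.3 and numpy 2.4.6 in Python 3.11.15, with plots from matplotlib 3.10.9. Replicates were compared by their counts in domains of identical coordinates. The chi-square over degrees of freedom was 1.73 for LmnB1_6 (chi-square p = 0.00037, 61 domains) and 1.10 for LmnB1_16 (p = 0.038, 648 domains). For mCherry_4 it was 1.67 (chi-square p = 0.016, 28 domains). The mCherry_3 pair did not differ detectably beyond sampling noise (1.08, 229 domains). In limma that pair enters only the spread, and limma was also run without either. Elsewhere its coverage is set beside that of the LmnB1 clones. Alternatives were other scalings, filters, bin sizes and leaving out each library. Subtracting the library mean moves all features of a library alike, so features with equal coverage in both clones can count as apart.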

Additional observations from a re-analysis of the deposited data

How the results depend on the processing

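Values are given as LmnB1_6 higher (or only in LmnB1_6) and then LmnB1_16. Leaving out 1 library gave 604 to 1705 and 402 to 2939 called bins, 1329 to 2617 and 3485 to 7028 bins apart, and 550 to 1166 and 231 to 1279 bins found in 1 clone. For genes these ranges were 78 to 256 and 137 to 501, 183 to 447 and 814 to 1406, and 68 to 179 and 97 to 378. Lengths found in 1 clone ran from 69.9 to 152.7 Mb and from 65.9 to 244.4 Mb, chromosomes apart from 0 to 15 and from 3 to 23, and the difference in covered length from -215.6 to 74.2 Mb. In limma a lone library was assumed to vary like the other groups. The fits without mCherry_3 replicate 1 or 2 were added after the data were seen and called 641 and 425 bins and 79 and 137 genes. With the highest-scoring 50% of each list 374 and 189 bins and 51 and 57 genes were called. There 1164 bins and 338 genes were apart for LmnB1_16, 145 bins and 47 genes were found in LmnB1_16 alone, over 30.6 Mb, the chromosomes apart were 4 and 0, and the covered length differed by 28.1 Mb. At equal covered length 1973 bins and 503 genes were apart for LmnB1_16, with 8 and 6 chromosomes apart, and as percent of the library total 8 and 5 were. Bins of 500 kb gave 189 and 102 called, 377 and 1069 apart, and 92 and 18 in 1 clone. With the library mean subtracted 1919 bins were apart for LmnB1_6, 451 and 362 genes were apart, and 61 genes were called for LmnB1_16. Without the filter 239 genes were called and 1162 apart for LmnB1_16. A fit of the LmnB1 libraries alone called 54 genes for LmnB1_6. The remaining counts stayed within 1.5 times. With the replicate number as a block, 694 and 463 bins and 85 and 120 genes were called. The numbers were not taken to pair the clones, since deviations of replicate 1 correlated at 0.003 over bins. Length found only in LmnB1_6 was 46.9 to 71.7 Mb over the alternatives that kept all 4 libraries. Of 47 named genes, 38 were called, 18 of these lost the call under at least 1 of 14 alternatives, and 0 of 633 values changed sign. A gene below the 5% filter in an alternative has no value there and was not counted as losing its call. Among called genes, MS4A3, PENK, GOLGA6L2 and SLCO1B3 had no value at equal covered length or with the highest-scoring 50%. SALL3, OR11G2, MUC15, LCE2D, SLCO5A1 and MITF had none with the highest-scoring 50%. Count models over common regions, with all their alternatives, were not run because 10 domains were common to the 4 lists and 50 had been set as the minimum. The data are limited by the authors' enrichment threshold, by 2 libraries per clone and by the weak LmnB1_6 replicate 2.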
